A study of Mus musculus with 55 samples.

Results

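This comparison set short-term hematopoietic stem cells (ST-HSCs) of mice without Tet2 against ST-HSCs of wildtype (WT) mice by bulk RNA-seq. Its members were 7 libraries, chosen by the population and genotype in their titles out of 55 libraries of sorted mouse bone marrow cells: 4 Tet2-/- libraries, numbered 2, 3, 4 and 5, and 3 WT libraries, numbered 2, 3 and 5. The Tet2-/- mice were Tet2 f/f, Mx1-Cre animals on C57BL/6, in which the floxed gene was deleted by 5 doses of poly(I:C) begun at 4 weeks of age, and they were analysed 16 weeks after induction. Mx1-Cre is driven by an interferon-inducible promoter, poly(I:C) is itself an inducer of interferon, and deletion is not confined to blood cells. Whether the WT mice received poly(I:C), carried Cre or had floxed alleles was not given in the sources used here, so those differences and the loss of Tet2 cannot be told apart. The labels give 200 sorted cells per library, and the paper's methods give a larger number per group. ST-HSCs were gated as Lin- cKit+ Sca1+ CD48- CD150- bone marrow cells. The study counts its replicates in mice, the labels name no animal for a library, and p-values measure the spread between these libraries.

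The TET enzymes turn 5-methylcytosine into oxidized forms that can be lost or replaced by plain cytosine, and TET2 is one of them. Blood stem cells that lose TET2 can outgrow their neighbours, which is seen in older people without disease as well as in leukemia. ST-HSCs lie directly below long-term HSCs (LT-HSCs) in the hierarchy: they give rise to all blood lineages, but for a limited time. The study profiled marrow populations to look for factors behind the outgrowth of cells with mutated TET2. Its attention to the type I interferon response came from the genes that differed.

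The RNA of the gate markers fitted the label for CD150 and not for CD48. Slamf1, which encodes CD150, was at 0 CPM in the Tet2-/- ST-HSCs and at 0.54 ± 0.93 CPM (SD, n = 3) in the WT ST-HSCs, against 61.9 ± 29.4 (SD, n = 4) and 50.7 ± 9.71 CPM (SD, n = 3) in the LT-HSCs of the same genotypes (CPM, read counts scaled to library size over the 46 libraries of the table). Flt3, a receptor that appears as stem cells leave the LT-HSC stage, stood at 87.1 and 96.7 CPM in Tet2-/- and WT ST-HSCs and at 7.37 and 4.93 CPM in LT-HSCs. Cd34 stood at 657 and 729 CPM in ST-HSCs and at 172 and 141 CPM in LT-HSCs. Cd48, whose protein the gate excludes, was present as RNA at 56.9 and 45.1 CPM in ST-HSCs, above the 4.37 and 7.49 CPM of LT-HSCs and below the 330.1 and 319 CPM of common myeloid progenitors. Cd4 and Cd5 encode T cell proteins that the lineage stain excludes. Cd4 was at 0.17, 3.57, 0.25 and 0.05 CPM in the Tet2-/- libraries and at 0 in the WT libraries. Cd5 was at 7.26, 1.93, 1.51 and 1.004 CPM against 0, 0 and 0.22 CPM; neither passed the edgeR test, and DESeq2 called Cd5. The list of T and NK cell markers had 1 of 5 positive and a median of -0.68. All 7 libraries had Xist and next to no reads of Y-linked genes.

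Each library held between 51966192 and 81083468 counts, and 17586 to 19095 genes had at least 1 count. The WT libraries were more alike than the Tet2-/- libraries: the correlation of log2 CPM across genes, which are not independent replicates, was 0.933 to 0.937 between WT libraries and 0.902 to 0.929 between Tet2-/- libraries. The share of counts on the mitochondrial genome was 10.0% to 13.1% in the Tet2-/- libraries and 8.73% to 9.02% in the WT libraries. The 50 most abundant genes took 28.9% to 30.3% of the counts in the former and 24.2% to 25.5% in the latter, so both properties separated the groups. The 3 genes called below were also called with the genes of the mitochondrial genome left out; the part of these properties in other results was not tested. The summed level of 7 macrophage and monocyte markers was 26.0 to 37.0 CPM in the Tet2-/- libraries and 39.6 to 62.7 CPM in the WT libraries. Of these, C1qb, a subunit of complement C1q, was at 0 in all 4 Tet2-/- libraries and at 4.01, 1.90 and 3.47 CPM in WT 2, 3 and 5. That is at least 69.1-fold lower against a floor of 3 counts per library. The bound covers counting error only, because reads of cDNA amplified from 200 cells are not separate molecules. The summed markers of neutrophils, B cells, T and NK cells, erythroid cells, basophils and mast cells, megakaryocytes, and stroma overlapped between the groups.

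Of 55421 genes in the table, 16212 passed the filter on low counts and were tested. With calls set at 2-fold and an adjusted p under 0.05, 3 genes were higher in Tet2-/- ST-HSCs by edgeR, which is 0.0185% of those tested, and 0 were lower (0%). At 2-fold and an unadjusted p under 0.05, 337 genes were higher (2.08%) and 255 lower (1.57%). DESeq2, the tool that the authors used, called 199 higher and 132 lower at the same limits, among them the 3 genes that edgeR called. Of its 331 calls, 33 had too few counts for the edgeR filter and 72 had groups that overlapped. Many of its higher calls were predicted transcripts known only by a Gm number, and far fewer of its lower calls were. The structural RNAs Rn7s1, Rn7s2, mt-Rnr1 and mt-Rnr2 were also among its higher calls. The DESeq2 count of higher genes is thus not a count of well-annotated genes, and the cause of this difference between the directions was not tested. The groups did not overlap, every library of one genotype above every library of the other, for 582 genes with higher values in Tet2-/- cells (3.59%) and for 717 with lower values (4.42%). The median log2 fold change over all genes tested was 0.04.

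**Figure D1:**
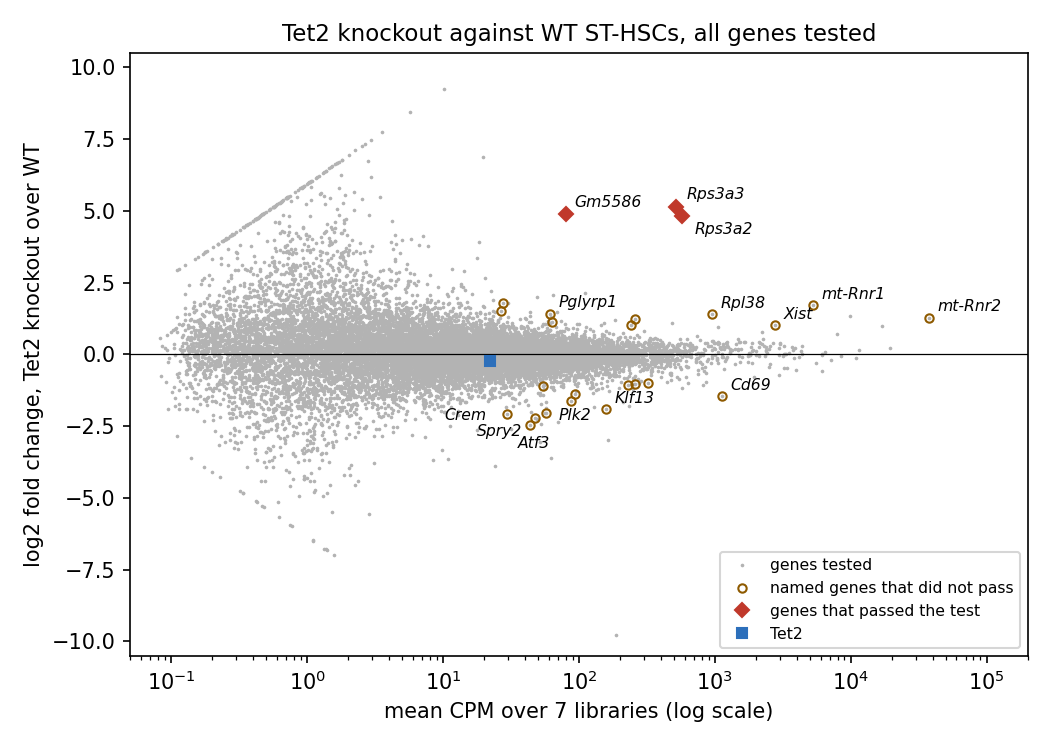
Log2 fold change of Tet2-/- over WT ST-HSCs (vertical axis) against mean CPM over the 7 libraries (horizontal axis, log scale) for the 16212 genes tested. Filled diamonds are the 3 genes that passed the test, open circles the named genes that did not, and the square is Tet2, which lies within the bulk of genes at -0.24.

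Tet2 itself did not separate the groups. It was read at 26.2, 11.4, 28.3 and 16.4 CPM in Tet2-/- libraries 2, 3, 4 and 5 and at 38.2, 22.3 and 12.5 CPM in WT 2, 3 and 5. The groups overlapped, and the log2 fold change was -0.24 ± 0.47 (SE), with adjusted p = 0.999 by edgeR; an exact permutation test, two-sided, gave p = 0.714, where 4 against 3 libraries cannot go below 0.0286. Counts were summed over the whole gene (chr3:133463679-133545139, minus strand, mm10), so reads from exons outside the floxed part are included, and the gene-level value does not check the deletion. Without WT 2 the log2 fold change was 0.24. Tet1 was at 39.3 CPM in Tet2-/- cells and 49.3 CPM in WT cells, and Tet3 at 32.8 and 31.4 CPM; these are the other members of the TET family.

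The 3 genes called higher were processed pseudogenes of a single parent. Rps3a2, Rps3a3 and Gm5586 are intronless copies of Rps3a1, which encodes a protein of the small ribosomal subunit. Rps3a2 was at 951, 922, 1227 and 828 CPM in Tet2-/- 2, 3, 4 and 5 and at 40.5, 28.9 and 33.8 CPM in WT 2, 3 and 5. Every Tet2-/- library was far above every WT library. The log2 fold change was 4.83 ± 0.23 (SE, with edgeR, adjusted p = 0.000273). Rps3a3 was at 826, 765, 1148 and 792 CPM against 34.8, 22.3 and 19.2 CPM, with a log2 fold change of 5.12 ± 0.31 (edgeR adjusted p = 0.000816). Gm5586 was at 107, 94.3, 199 and 146 CPM against 5.57, 3.76 and 4.34 CPM, with a log2 fold change of 4.90 ± 0.37 (edgeR adjusted p = 0.0032). The Gm5586 call was lost without WT 3 (edgeR adjusted p = 0.0504) and without WT 5 (edgeR adjusted p = 0.0626), with log2 fold changes of 4.78 and 4.87. It was also lost with a replicate block, where 2 genes were called. Rps3a2 and Rps3a3 were called without each library in turn. The parent had lower values in Tet2-/- cells and did not pass the test: Rps3a1 was at 2549, 2446, 3536 and 2556 CPM in Tet2-/- libraries and at 4381, 3305 and 3885 CPM in WT libraries, -0.48 ± 0.18 on the log2 scale (edgeR adjusted p = 0.653), and its groups overlapped through Tet2-/- 4 and WT 3.

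The sequences show how close the copies are to their parent. Rps3a1 lies on chr3:86137940-86142702 (minus strand), on the same chromosome as Tet2. Rps3a2 lies on chr14:88123017-88123808 (minus strand), Rps3a3 on chr13:108670603-108671397 (plus strand) and Gm5586 on chr7:16719116-16719910 (minus strand), all on mm10. Against the 795 bases of the Rps3a1 coding sequence, Rps3a2 had 4 mismatches over 792 aligned bases (99.5% identity), Rps3a3 had 9 over 795 (98.9%) and Gm5586 had 12 over 795 (98.5%). Only 21 positions differed from Rps3a1 in any copy, and 2 differed in all 3. Bases 502 to 621 of the coding sequence, the 120 bases with the most differences, are shown from the GENCODE vM21 transcripts to show how few letters set the copies apart from the parent; capitals mark bases that differ from Rps3a1.

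Rps3a1: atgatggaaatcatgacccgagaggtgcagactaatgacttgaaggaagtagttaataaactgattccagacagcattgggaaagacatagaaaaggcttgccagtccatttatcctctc
Rps3a2: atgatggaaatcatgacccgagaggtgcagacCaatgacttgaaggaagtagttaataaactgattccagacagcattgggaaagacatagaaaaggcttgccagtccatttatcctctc
Rps3a3: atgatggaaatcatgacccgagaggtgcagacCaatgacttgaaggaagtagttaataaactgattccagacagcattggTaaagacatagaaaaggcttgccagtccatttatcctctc
Gm5586: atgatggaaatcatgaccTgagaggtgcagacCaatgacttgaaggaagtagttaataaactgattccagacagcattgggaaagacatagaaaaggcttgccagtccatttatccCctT

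The window held 1 difference in Rps3a2, 2 in Rps3a3 and 4 in Gm5586, and 1 of them was shared by all copies. Reads that cover none of the differing positions match more than 1 of these loci. How such reads were counted is not given in the sources used here, so the split of counts between Rps3a1 and its copies is uncertain. Summed over Rps3a1 and its 3 copies, the values were 4434, 4227, 6110 and 4321 CPM in Tet2-/- 2, 3, 4 and 5. WT 2, 3 and 5 had 4462, 3360 and 3943 CPM, so the summed groups overlapped. The same copies were called in the LT-HSC libraries, at log2 fold changes of 4.68 (Rps3a2), 5.16 (Rps3a3) and 4.63 (Gm5586). These are other libraries, numbered alike and with a WT group of their own. The labels do not say whether libraries of the same number came from the same mouse, so the LT-HSC calls may share animals with those above.

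**Figure D2:**
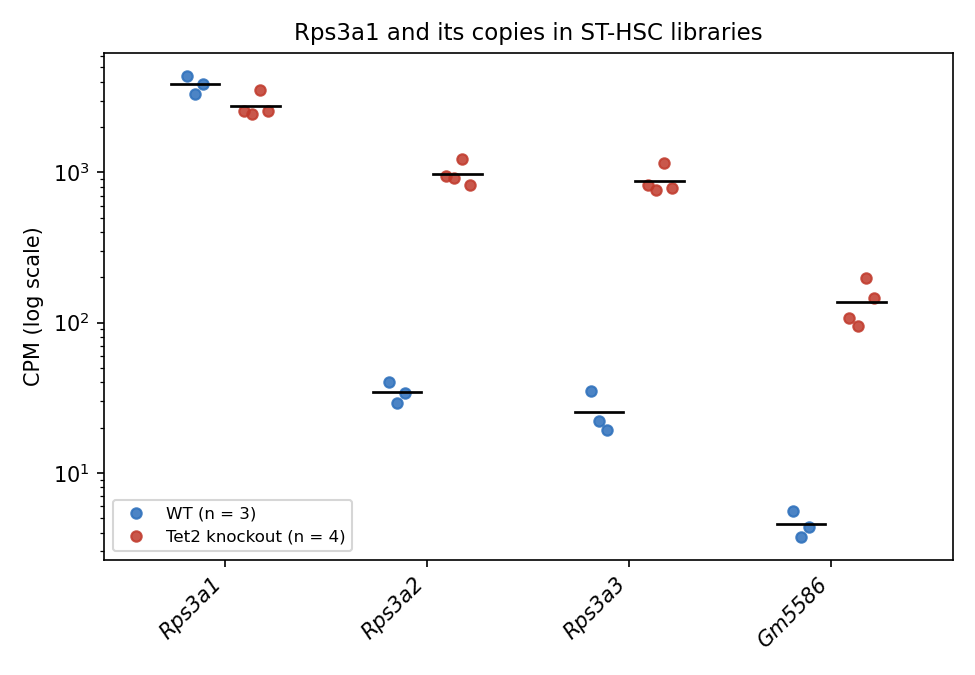
CPM (log scale) of Rps3a1 and its 3 copies in each ST-HSC library, with black lines at the group means. WT libraries lie to the left and Tet2-/- libraries to the right of each gene; the copies were between 94.3 and 1227 CPM in Tet2-/- cells and between 3.76 and 40.5 CPM in WT cells, while the Rps3a1 groups overlapped.

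The genes with the smallest p-values, named by rule among annotated genes at 2-fold and a mean of at least 20 CPM, were 12 genes higher and 12 lower in Tet2-/- ST-HSCs, with Rps3a2 and Rps3a3 among the former. The groups did not overlap for any of them because the rule required it. Apart from the pseudogenes none passed the edgeR test on the 7 libraries, with adjusted p from 0.0910 to 0.377. The edgeR fit of all 46 libraries called 4 genes higher and 17 lower among all genes tested. DESeq2 called all 12 in each direction.

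Among the higher genes, Mbnl1, a splicing regulator of the muscleblind family, was at 366, 279, 309 and 289 CPM in Tet2-/- libraries and at 166, 143 and 146 CPM in WT libraries. Its log2 fold change was 1.03 ± 0.17 (SE, with edgeR, adjusted p = 0.205). Srp14, a subunit of the signal recognition particle that binds nascent secretory proteins, was at 257, 365, 419 and 325 CPM against 137, 138 and 158 CPM, a log2 fold change of 1.24 ± 0.20. Pglyrp1, a peptidoglycan-binding protein of innate immunity, was at 97.5, 82.5, 80.6 and 75.7 CPM against 26.0, 40.3 and 27.9 CPM. The other higher genes were Eef2k, the kinase that inhibits translation elongation factor 2 (log2 fold change 1.80), Shoc2, a scaffold of RAS and RAF signalling (1.4998), the nuclear transport receptor Xpo4 (1.12), Rpl38, and 3 long or structural RNAs. Xist, the RNA that coats the inactive X chromosome, was at 3785, 3038, 3425 and 3888 CPM in Tet2-/- libraries and at 2072, 1478 and 1694 CPM in WT libraries. The mitochondrial ribosomal RNAs mt-Rnr1 and mt-Rnr2 were at 6132 to 9440 and 43609 to 61645 CPM in Tet2-/- cells and at 1575 to 2676 and 15187 to 23990 CPM in WT cells. They are part of the higher mitochondrial fraction given above. Of 15 genes of the mitochondrial genome tested, only these 2 had groups without overlap. Among all genes tested, 3.59% were without overlap on the higher side and 4.42% on the lower side.

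Among the lower genes, Crem, a transcription factor that answers to cyclic AMP, was at 15.4, 9.83, 12.5 and 11.4 CPM in Tet2-/- libraries and at 57.6, 49.8 and 48.8 CPM in WT libraries, with every WT library more than 3 times the highest Tet2-/- library. Its log2 fold change was -2.08 ± 0.26 (SE, with edgeR, adjusted p = 0.0910). Spry2, an inhibitor of receptor tyrosine kinase signalling, was at 12.8, 17.4, 21.7 and 22.4 CPM against 90.4, 100.3 and 66.7 CPM, with a log2 fold change of -2.21 ± 0.28 (edgeR adjusted p = 0.0910). Atf3, a stress-induced transcription factor, was at 23.9, 10.96, 9.95 and 14.6 CPM against 42.2, 112 and 92.2 CPM. Cd69, an early activation antigen that retains cells in tissue, was at 515, 546, 810 and 723 CPM against 1351, 1532 and 2407 CPM. Klf13, a zinc finger transcription factor, was at 98.2, 65.1, 61.7 and 65.5 CPM against 210, 420 and 190 CPM. Plk2, a polo-like kinase, is described with the p53 targets below. The remaining lower genes belonged to vesicle traffic (Kdelr2, the receptor that returns proteins to the endoplasmic reticulum, log2 fold change -1.40; Sar1a, a GTPase of COPII vesicles, -1.64), to the actin machinery (Arpc3 and Actr2, both subunits of the Arp2/3 complex, -1.03 and -1.01), to splicing and transcription (Arglu1, -1.05) and to valine breakdown (Hibch, -1.11).

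Gene groups were read from lists of pathway members. For each list the count of positive log2 fold changes and the median are given beside those of all genes tested, of which 8611 of 16212 were positive with a median of 0.04. Apart from the Rps3a copies no member of any of the 24 other lists was called by edgeR on the 7 libraries in either direction. The values that follow are therefore descriptions. A list score is the mean of log2(CPM + 1) over the members tested in a library.

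**Figure D3:**
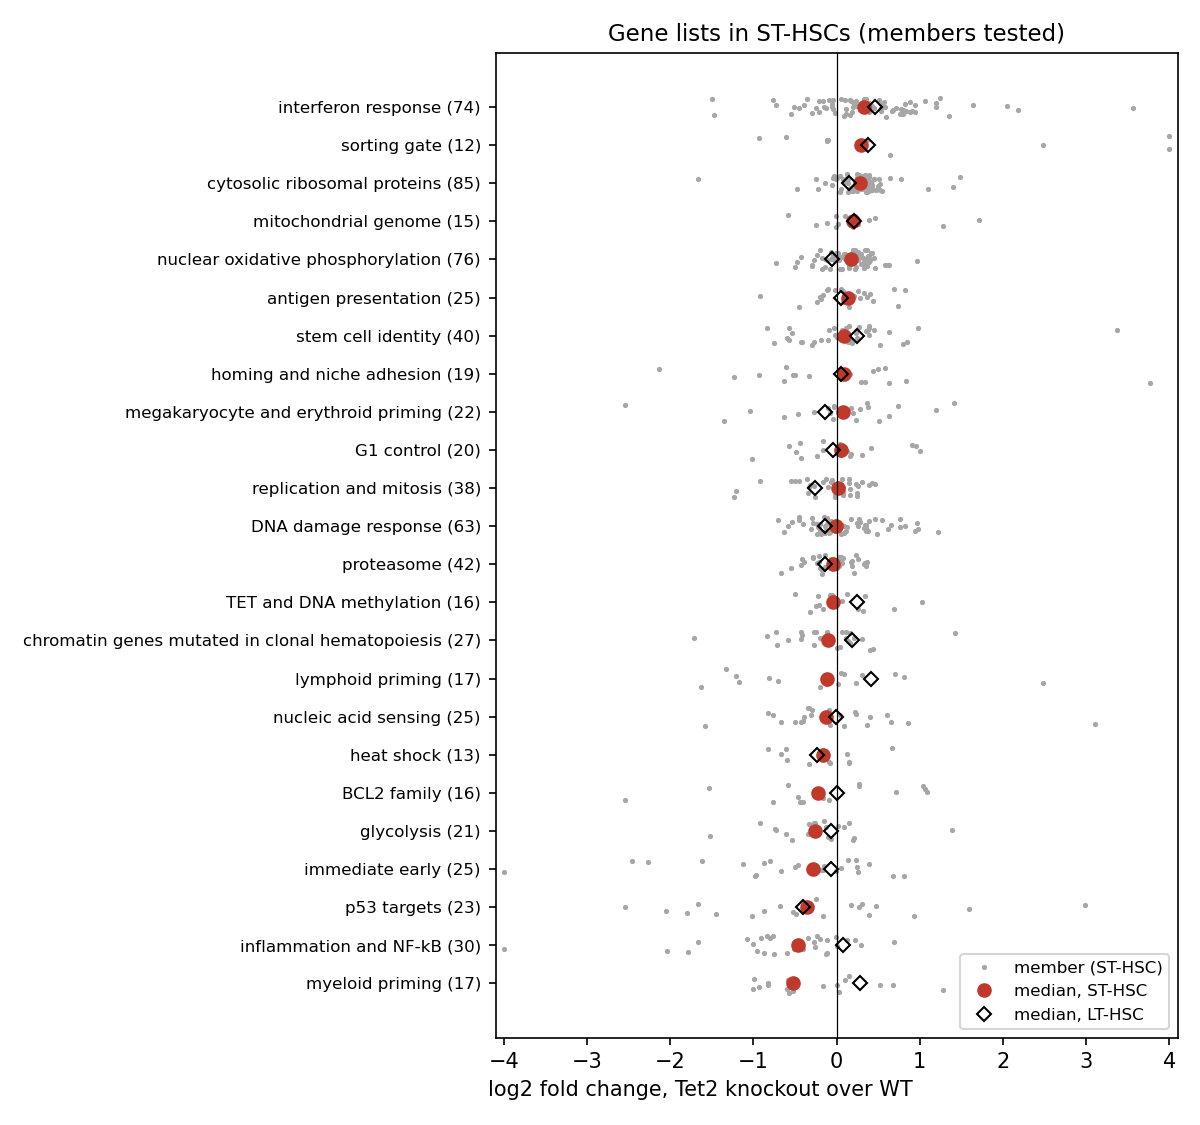
Log2 fold change (Tet2-/- over WT) of the members tested in each of 24 gene lists, the number of members in parentheses. Grey points are members in ST-HSCs, drawn at 4 or -4 where they lie beyond, filled circles the ST-HSC medians and open diamonds the LT-HSC medians; the ST-HSC medians run from -0.52 for myeloid priming to 0.33 for the interferon response.

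Interferon response genes had more positive than negative fold changes in Tet2-/- ST-HSCs, and none passed the edgeR test. Type I interferon acts on antiviral genes through a repeated GAAA element in their promoters. Of 74 members tested, 52 were positive, with a median of 0.33 (0.46 in LT-HSCs). The list score was 4.93, 5.44, 5.02 and 5.34 in Tet2-/- 2, 3, 4 and 5 and 4.95, 4.71 and 4.96 in WT 2, 3 and 5, so Tet2-/- 2 lay within the WT range and the groups overlapped. Without Tet2-/- 3 the median was 0.20. Groups did not overlap for 6 members with higher values (Ifit1, Xaf1, Rtp4, Slfn8, Ifi27 and Ifit3) and for 2 with lower values (Helz2 and Uba7), against 3.59% and 4.42% of all genes tested.

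Ifit1, which binds viral RNA lacking a methylated cap, was at 30.0, 30.8, 31.4 and 43.6 CPM in Tet2-/- libraries and at 19.5, 14.2 and 19.1 CPM in WT libraries. Its log2 fold change was 0.95 ± 0.28 (SE, with edgeR, adjusted p = 0.526). Xaf1, a pro-apoptotic interferon-induced protein, was at 61.3, 93.0, 100.4 and 101.7 CPM against 48.7, 59.6 and 47.6 CPM, a log2 fold change of 0.78 ± 0.24. Slfn8, of the Schlafen family, was at 36.6, 40.1, 30.8 and 44.5 CPM against 12.5, 23.5 and 25.5 CPM. Ifit3, a partner of Ifit1, was at 8.82, 11.6, 4.80 and 6.78 CPM against 3.14, 0 and 2.09 CPM. These genes were picked because their groups did not overlap, so that order is no finding about the list. Other members overlapped. Ifi44 was at 279, 381, 124 and 192 CPM against 101, 83.5 and 135 CPM, where Tet2-/- 4 lay below WT 5. Irf7, the amplifier of interferon output, overlapped as well, at 2.17, 10.6, 4.91 and 11.3 CPM against 10.6, 11.3 and 6.52 CPM. Isg15, a ubiquitin-like effector, was at most 1.61 CPM in any library.

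The list of nucleic acid sensing genes gave no common direction. Besides cytosolic sensors it holds receptors such as Ifnar2, Ifngr1 and Tlr4. Of 25 nucleic acid sensing genes tested, 10 were positive and the median was -0.12; without WT 3 it was 0.09. Tmem173, which encodes STING, was at 50.02, 51.5, 55.0 and 141 CPM in Tet2-/- libraries and at 45.99, 66.4 and 77.3 CPM in WT libraries, with only Tet2-/- 5 above the WT range. Cgas, the DNA sensor upstream of STING, was at 14.7, 3.82, 7.42 and 6.33 CPM against 16.5, 10.2 and 16.2 CPM (log2 fold change -0.82 ± 0.52; edgeR adjusted p = 0.985).

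Promoters were searched for the interferon element as GAAA, any 2 bases, GAAA, on both strands of the 250 bases before each start site in RefSeq (GRCm38.p6). It was found in 26 of the 56 interferon response genes that have a promoter in that table (46.4%), against 3.46% of all 27025 genes with one. Among the 6 members whose groups did not overlap with higher values, 4 had a promoter there and 3 held the element. A match describes letters and is not a binding site. The 100 bases that hold it are shown for these 3 genes, written 5′ to 3′ on the strand of the gene, with the match in capitals (TTTC repeats are the element on the other strand).

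Ifit1, chr19:34640759-34640858, plus strand: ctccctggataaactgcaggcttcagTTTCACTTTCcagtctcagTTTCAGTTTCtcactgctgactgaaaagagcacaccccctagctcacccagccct
Ifit3, chr19:34583362-34583461, plus strand: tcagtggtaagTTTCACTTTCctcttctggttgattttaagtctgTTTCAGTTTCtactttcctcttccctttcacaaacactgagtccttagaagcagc
Slfn8, chr11:83020811-83020910, minus strand: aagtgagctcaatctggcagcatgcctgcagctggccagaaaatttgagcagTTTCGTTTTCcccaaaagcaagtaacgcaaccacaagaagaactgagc

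Ifit1 and Ifit3 each carried 2 matches in the 250 bases and Slfn8 carried 1. These 3 genes were taken from members picked for higher values without overlap, so their levels are no finding beside the matches.

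Genes of inflammation and NF-kB signalling mostly had lower values in Tet2-/- ST-HSCs. NF-kB dimers induce cytokines together with their own inhibitors. The activity of NF-kB itself was not measured here. Of 30 members tested, 5 were positive, with a median of -0.46 in ST-HSCs (0.08 in LT-HSCs). The list score was 4.60, 4.45, 4.02 and 4.44 in Tet2-/- libraries and 5.05, 4.96 and 5.003 in WT libraries, and the groups did not overlap. The median lay between -0.58 and -0.31 when each library was left out in turn.

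Groups did not overlap, with lower values in Tet2-/- cells, for 6 of the 30 members, against 4.42% of all genes tested. Nfkbia, which encodes the inhibitor I-kappa-B alpha, was at 181, 77.3, 97.3 and 96.9 CPM in Tet2-/- libraries and at 238, 368 and 564 CPM in WT libraries. Its log2 fold change was -1.79 ± 0.37 (SE, with edgeR, adjusted p = 0.314), and DESeq2 called it. Nfkbiz, a nuclear co-regulator of the same family, was at 94.6, 77.9, 81.3 and 64.1 CPM against 173, 140.1 and 167 CPM, a log2 fold change of -1.01 ± 0.19. Tnfaip3, which encodes the ubiquitin-editing inhibitor A20, was at 3.21, 59.6, 36.4 and 19.6 CPM against 73.8, 120.3 and 87.7 CPM. The chemokine Ccl3 was at 274, 453, 289 and 256 CPM against 512, 711 and 622 CPM. The chemokine Cxcl2 was at 16.7, 31.2, 23.9 and 27.2 CPM against 47.6, 34.4 and 50.7 CPM. Il1b, the cytokine interleukin-1 beta, was at 0, 0.44, 0 and 0 CPM against 9.62, 7.89 and 1.92 CPM. These 6 were picked because their groups did not overlap; the groups of the 5 positive members overlapped, among them Relb, an NF-kB subunit (log2 fold change 0.69). Il1b is also made by macrophages and monocytes, whose summed markers were lower in the same libraries; the part of these cells was not tested, and in bulk samples fewer cells of a type and less RNA per cell cannot be told apart.

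A NF-kB motif, searched as GGG, any 2 bases, TTTCC on both strands of the same 250 bases, was found in 6 of the 23 members with a promoter (26.1%) and in 1.65% of all genes with one. Of the 6 members named above 5 had a promoter and 3 held the motif. These members were picked for lower values without overlap, so nothing is read from this match. The 100 bases that hold the match nearest the start site are shown for them, with matches in capitals.

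Nfkbia, chr12:55492648-55492747, minus strand: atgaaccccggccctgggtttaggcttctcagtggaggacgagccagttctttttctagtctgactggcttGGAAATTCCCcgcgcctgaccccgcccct
Cxcl2, chr5:90903776-90903875, plus strand: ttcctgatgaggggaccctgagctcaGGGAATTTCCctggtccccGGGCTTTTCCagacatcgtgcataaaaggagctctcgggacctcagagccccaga
Tnfaip3, chr10:19015411-19015510, minus strand: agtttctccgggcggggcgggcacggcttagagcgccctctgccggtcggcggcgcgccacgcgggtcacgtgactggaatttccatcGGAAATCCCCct

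p53 targets and immediate early genes also lay mostly below the WT level. p53 induces genes that stop the cell cycle and drive apoptosis after damage. Of 23 targets tested, 8 were positive, with a median of -0.35 (-0.53 without WT 2; -0.40 in LT-HSCs), and the list score was 3.80, 3.56, 3.75 and 3.52 in Tet2-/- libraries and 3.89, 4.09 and 4.21 in WT libraries. The score groups did not overlap, and neither did those of 5 members, all lower, against 4.42% of all genes tested. Plk2 was at 31.9, 26.1, 25.2 and 13.9 CPM against 83.2, 92.0 and 127 CPM, a log2 fold change of -2.05 ± 0.31 (SE, with edgeR, adjusted p = 0.204). Plk3, a stress-responsive kinase of the same family, was at 5.81, 6.61, 4.02 and 4.46 CPM against 13.8, 14.6 and 14.3 CPM. Btg2, an antiproliferative cofactor of mRNA deadenylation, was at 172, 234, 168 and 181 CPM against 240.0, 424 and 371 CPM. DESeq2 called Plk2 and Plk3. The other two were Gadd45b (log2 fold change -1.66) and Tnfrsf10b, a death receptor (-1.79). The classical target Cdkn1a, which encodes p21, was at 288, 169, 190 and 124 CPM against 551, 282 and 334 CPM, and its groups overlapped through Tet2-/- 2 and WT 3. The genes that respond to DNA damage itself had no common direction, with 31 of 63 positive and a median of -0.01.

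Immediate early genes, which are transcribed within minutes of a stimulus without new protein, held members on both sides. Of 25 tested, 8 were positive and the median was -0.28, or -0.13 without Tet2-/- 4 and likewise without Tet2-/- 5. Jun was at 220, 201, 171 and 185 CPM in Tet2-/- libraries and at 111, 95.5 and 126 CPM in WT libraries. Egr1 was at 345, 351, 274 and 299 CPM against 186, 209 and 197 CPM. Jun and Egr1 encode transcription factors and were higher in all 4 Tet2-/- libraries, with log2 fold changes of 0.81 ± 0.18 and 0.68 ± 0.16 (SE, with edgeR, adjusted p = 0.358 and 0.367). Atf3, Btg2, Btg1 and Ier5 were lower in all of them, which makes 2 members without overlap on the higher and 4 on the lower side, against 3.59% and 4.42% of all genes tested. The list score was 6.28, 5.93, 5.53 and 5.48 in Tet2-/- libraries against 6.21, 6.20 and 6.26 in WT libraries, with Tet2-/- 2 above all WT libraries.

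The core of the cyclic AMP element, TGACGT, was searched in the same way because Crem and its relatives bind it. It was found in 8 of 21 immediate early genes (38.1%), in 3 of 18 p53 targets (16.7%), in 11.5% of the 10323 tested genes with a promoter and in 7.29% of all genes with one. The 3 p53 targets that held it were Plk2, Plk3 and Btg2. All are among the 5 whose groups did not overlap, of which 4 had a promoter. The element was picked because of Crem, so nothing is read from this match. The 100 bases around the match are shown for these 3 genes. The palindrome TGACGTCA counts as a match on both strands.

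Plk2, chr13:110394937-110395036, plus strand: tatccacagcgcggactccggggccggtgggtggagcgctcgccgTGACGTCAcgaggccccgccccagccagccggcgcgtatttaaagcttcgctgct
Plk3, chr4:117134043-117134142, minus strand: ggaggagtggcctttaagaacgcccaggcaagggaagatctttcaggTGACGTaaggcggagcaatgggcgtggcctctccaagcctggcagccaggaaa
Btg2, chr1:134079267-134079366, minus strand: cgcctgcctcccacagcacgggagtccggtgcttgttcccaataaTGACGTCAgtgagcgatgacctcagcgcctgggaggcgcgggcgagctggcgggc

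**Figure D4:**
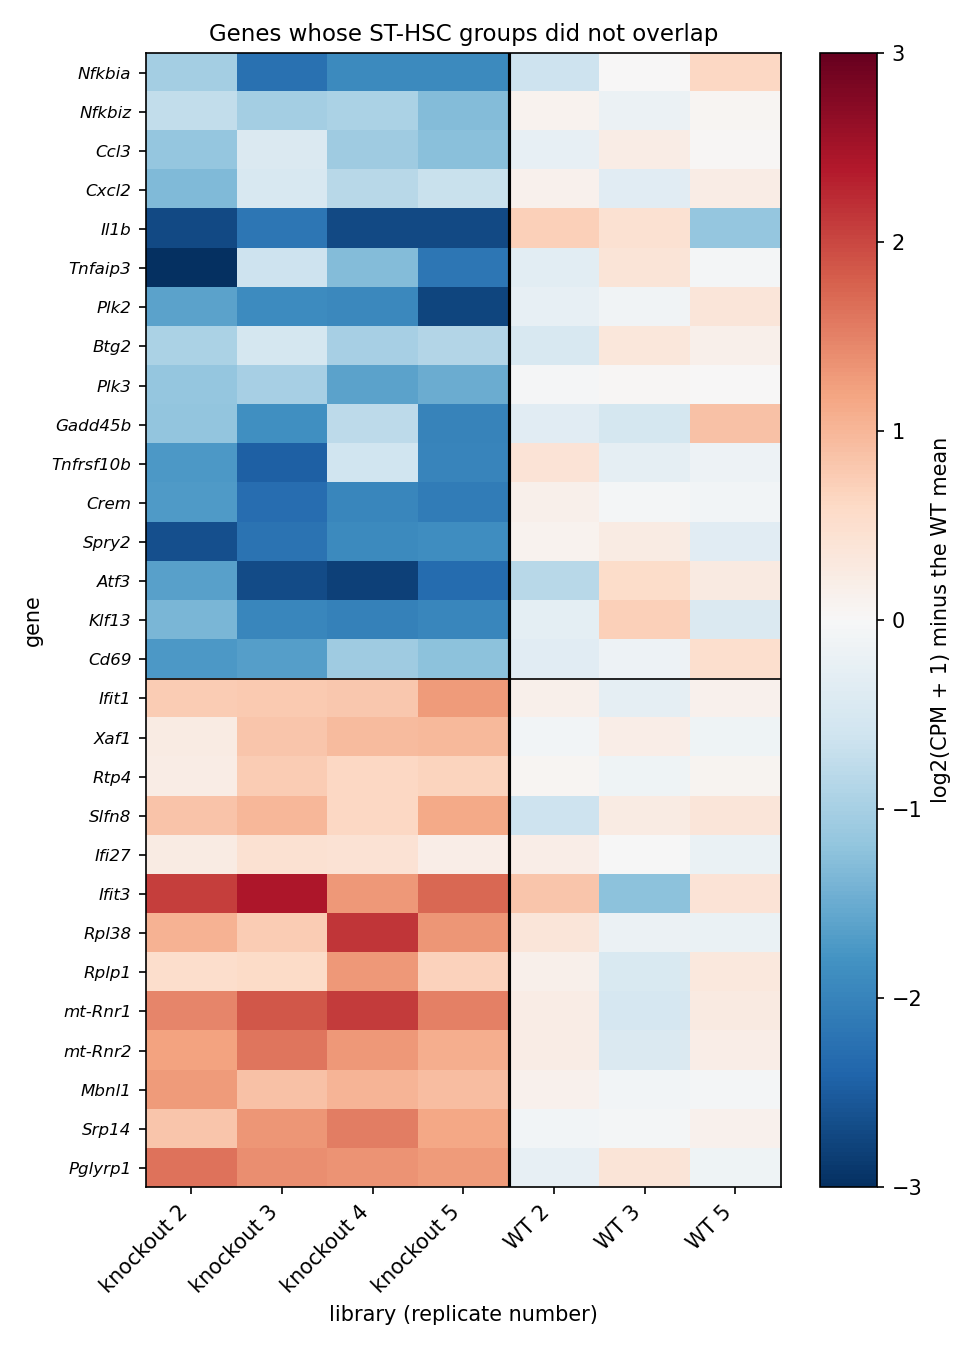
Log2(CPM + 1) minus the WT mean for 29 genes (rows) in the 7 ST-HSC libraries (columns), blue below and red above the WT mean. The genes were picked because their groups did not overlap; the upper 16 were lower and the lower 13 higher in all 4 Tet2-/- libraries, and the colour scale ends at -3 and 3.

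Glycolysis genes had 6 of 21 positive and a median of -0.26 (-0.15 without WT 3). The list score was 6.13, 6.03, 5.81 and 5.97 in Tet2-/- libraries and 6.18, 6.39 and 6.16 in WT libraries, without overlap. Members without overlap on the lower side were 7, against 4.42% of all genes tested, among them the glucose transporter Slc2a1 (19.0, 12.6, 17.3 and 13.7 CPM against 27.5, 32.7 and 29.0 CPM) and Gpi1, which interconverts glucose and fructose phosphates (179, 147, 167 and 190.0 CPM against 210, 288 and 247 CPM). Hk1, a hexokinase, went the other way, at 26.4, 12.9, 10.4 and 22.9 CPM against 7.25, 7.13 and 6.33 CPM. Gapdh was at 67.4 to 81.1 CPM in Tet2-/- cells and at 62.3 to 73.7 CPM in WT cells.

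Cytosolic ribosomal protein genes had 76 of 85 positive and a median of 0.29 (0.14 without Tet2-/- 4), with 14 members without overlap on the higher side and 1, Rpl4, on the lower side, against 3.59% and 4.42% of all genes tested. Rpl38, a protein of the large subunit, was at 1014, 831, 2150 and 1235 CPM against 629, 434 and 427 CPM, with a log2 fold change of 1.40 ± 0.34 (SE, with edgeR, adjusted p = 0.377). The list score overlapped, at 9.94 to 10.6 against 9.77 to 10.0. Nuclear genes of oxidative phosphorylation had 54 of 76 positive and a median of 0.18, which was -0.02 without Tet2-/- 4. Of 15 genes of the mitochondrial genome, 10 were positive and the median was 0.20, which was 0.0077 without Tet2-/- 4. Within the latter the ribosomal RNAs were at least 1.28 in log2 fold change, while mt-Atp6, a subunit of ATP synthase, was at 3852, 1418, 8605 and 6324 CPM against 6840, 8017 and 7748 CPM. With the genes of the mitochondrial genome left out of scaling and testing, the 3 calls stood.

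Stem cell identity genes had 25 of 40 positive and a median of 0.09, which lay between 0.02 and 0.18 when each library was left out in turn. Erg and Angpt1 were higher and Bmi1 lower without overlap, and 2 and 1 of 40 members are near the 3.59% and 4.42% of all genes tested. Gata2, a transcription factor needed for stem cell maintenance, was at 68.5, 2.58, 39.8 and 5.58 CPM in Tet2-/- libraries and at 2.50, 1.89 and 3.97 CPM in WT libraries, so its log2 fold change of 3.37 ± 1.12 (SE, with edgeR, adjusted p = 0.56) rested on Tet2-/- 2 and 4. Hlf, a factor that marks HSCs, was at 178, 149, 82.8 and 121 CPM against 219, 211 and 169 CPM. Bmi1, a Polycomb protein that sustains self-renewal, was at 54.0, 41.8, 30.7 and 15.4 CPM against 73.7, 55.3 and 61.2 CPM, lower in all 4 Tet2-/- libraries (edgeR adjusted p = 0.861). The list named chromatin genes mutated in clonal hematopoiesis also held genes of other kinds, such as the splicing factor Sf3b1 and the kinase Jak2. Its name is thus not a statement about each member. Of its members 13 of 27 were positive, with a median of -0.10. Kdm6b, a histone H3 lysine demethylase on this list, was at 21.4, 13.1, 13.2 and 25.8 CPM against 44.8, 56.0 and 79.6 CPM. Its log2 fold change was -1.71 ± 0.34 (SE, with edgeR, adjusted p = 0.314).

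Replication and mitosis genes split the Tet2-/- libraries among themselves. The list had 19 of 38 positive and a median of 0.02 (-0.31 without Tet2-/- 4), but its score was 4.53 and 4.62 in Tet2-/- 2 and 3 and 6.10 and 5.99 in Tet2-/- 4 and 5, around 5.60, 5.26 and 5.87 in WT 2, 3 and 5. Top2a, the topoisomerase of dividing cells, was at 54.4, 66.8, 239 and 259 CPM in Tet2-/- libraries and at 103, 93.7 and 157 CPM in WT libraries. The mitotic activator Cdc20 followed the same split, at 9.56, 6.73, 25.2 and 18.7 CPM, against 21.2, 38.3 and 46.5 CPM in WT libraries. The spread within the genotype was thus wider than the difference between genotypes.

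Lineage priming lists were mixed. Myeloid priming genes had 7 of 17 positive and a median of -0.52, which was -0.09 without WT 3 and 0.29 in LT-HSCs. Spi1, which encodes PU.1, was at 17.4, 21.9, 21.3 and 25.6 CPM against 12.7, 11.8 and 15.9 CPM, whereas Cebpa, the factor that starts the granulocyte program, was at 2.78, 5.87, 3.14 and 3.79 CPM against 5.88, 6.98 and 10.52 CPM. Both groups were free of overlap in opposite directions, and neither gene passed the test (edgeR adjusted p = 0.841 and 0.925). Lymphoid priming genes had 8 of 17 positive and a median of -0.12 (0.0988 without WT 5). Lck, a T cell kinase, was at 11.8, 14.3, 13.5 and 7.92 CPM against 28.8, 28.9 and 22.6 CPM. Megakaryocyte and erythroid priming genes had 11 of 22 positive and a median of 0.07 (-0.10 without WT 5). Homing and niche adhesion genes had 11 of 19 positive and a median of 0.09 (-0.45 without Tet2-/- 2), with 1 member without overlap on the higher and 2 on the lower side, few members beside the 3.59% and 4.42% of all genes tested, so nothing is read from their number. Itga6, an integrin subunit, was at 59.7, 38.1, 43.4 and 36.9 CPM against 35.2, 26.6 and 27.7 CPM. Cxcr4, the receptor that holds stem cells in the marrow, was at 12.2, 13.9, 15.2 and 16.1 CPM against 22.6, 40.5 and 38.1 CPM, and Cd47, which protects cells from phagocytosis, at 299, 261, 271 and 270 CPM against 341, 454 and 467 CPM.

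**Figure D5:**
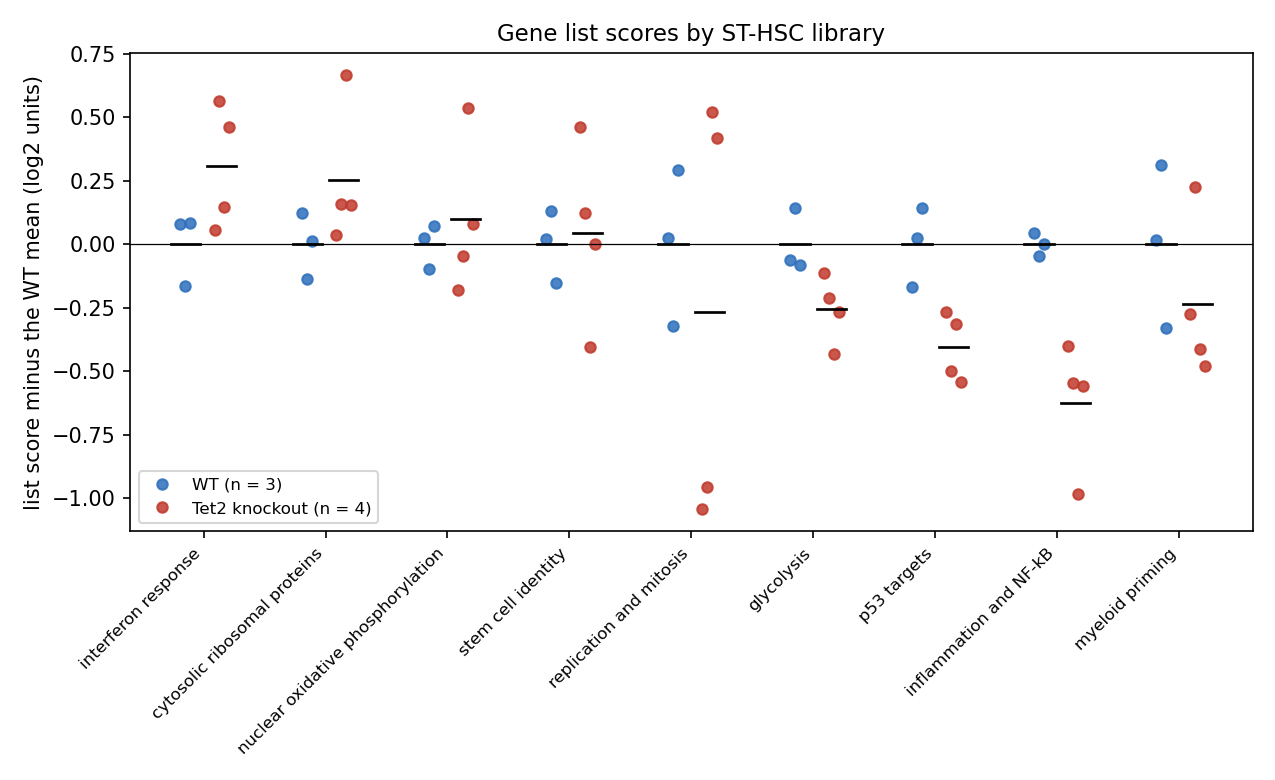
List scores (mean log2(CPM + 1) over members tested) minus the mean of the WT libraries, by library, for 9 gene lists. Black lines are group means; the Tet2-/- libraries lie below all WT libraries for glycolysis, p53 targets, and inflammation and NF-kB, and split into a low and a high pair for replication and mitosis.

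Whether the effect of the genotype differed between ST-HSCs and LT-HSCs was tested as an interaction over 14 libraries. Of 18385 genes tested, edgeR called 0 (0%) at an adjusted p of 0.05, with 773 at an unadjusted p under 0.05. DESeq2, run on all 55421 genes of the table, called 443. Among the genes named above, Srp14 differed by 1.46 ± 0.29 (SE, ST-HSC minus LT-HSC): it stood at 306 CPM in Tet2-/- and 355 CPM in WT LT-HSCs, with a log2 fold change of -0.22 there. Hibch differed by -1.25 ± 0.27 and Cd69 by -1.34 ± 0.47, the latter with 219 and 236 CPM in Tet2-/- and WT LT-HSCs. For Ccl3 the difference was -1.84 ± 0.72, for Hlf -1.89 ± 0.60, for Cd47 -0.70 ± 0.21, for Xpo4 1.08 ± 0.36 and for Cxcr4 -1.03 ± 0.45. Ifit3 was at 0 in the WT LT-HSCs and at 5.08 ± 2.13 CPM (SD, n = 4) in the Tet2-/- LT-HSCs, so its fitted difference is no bound and is not given. None of these passed after adjustment (edgeR adjusted p = 0.9999). Other genes had like values in both populations: Spry2 had a log2 fold change of -2.21 in ST-HSCs and -2.14 in LT-HSCs, Kdelr2 -1.40 and -1.49, Klf13 -1.91 and -1.94, and mt-Rnr1 1.72 and 1.69. Crem, Atf3, Plk2 and Nfkbia were lower in LT-HSCs too, at log2 fold changes of -1.75, -1.74, -1.41 and -1.08. They did not pass the edgeR test there. Nfkbiz went the other way in LT-HSCs, at 0.44.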

How the data were processed

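ST-HSCs were sorted from mouse bone marrow and full-length cDNA was amplified by a Smart-seq2 type protocol. Per the submitters' processing notes, reads were trimmed with Trim Galore 0.6.7 and aligned with HISAT2; the notes name mm10 and mm9, and the methods mm10 and an earlier Trim Galore version. The counting program and annotation are not given in the sources used here. The deposited values are raw counts of reads per gene, made by the authors without normalization, in a table of 46 libraries; a second table of other libraries was not used. Columns were assigned to samples by title.

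Counts were tested in R 4.3.3 with edgeR 4.0.16 (filterByExpr, TMM scaling, quasi-likelihood test of 4 against 3 libraries, Benjamini-Hochberg adjustment over all genes tested, prior count of 2, calls at an adjusted p of 0.05 and 2-fold). CPM are TMM-scaled; standard errors come from the fit. For single genes, log2(CPM + 1) was compared by an exact permutation test, two-sided, over the 35 ways to assign the libraries. DESeq2 1.42.0, RLE scaling, no filter, all 46 libraries in one fit, a replicate block and leaving out each library were alternatives. The procedure was tested on simulated data, where DESeq2 recovered more of the changed genes than edgeR and also made more false calls. Genes were named by rule: called genes; the 12 smallest p-values per direction among annotated genes at a mean of at least 20 CPM, 2-fold and without overlap between groups; fixed genes; and up to 2 per list and direction. Ifi44, Ccl3, Il1b, Slfn8, Ifit3 and other list members outside that rule were named with their values in view. The comparison and the gene lists were chosen with earlier results of these data known. Coordinates are from GENCODE vM21 (mm10), promoters from RefSeq (GRCm38.p6), and sequences were aligned with Biopython 1.88. An item withheld for evaluation is not reported here.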

Additional observations from a re-analysis of the deposited data

Results flagged for a closer look

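A library was picked out where, among the 4 Tet2-/- ST-HSC libraries, 1 lay far from the other 3 (its gap to the nearest, over the whole range, above Dixon's 95% critical value). This was examined for 150 quantities, of which 11 (7.33%) were picked out; chance alone picks out about 1 in 20. Tet2-/- 4 was high for Rps3a3 (1148 CPM, others 765 to 826), Rps3a1 (3536 CPM, others 2446 to 2556) and Rplp1 (3837 CPM, others 2257 to 2520). Tet2-/- 5 was high for Tmem173 (140.9 CPM, others 50.02 to 55.0) and Ifit1 (43.6 CPM, others 30.0 to 31.4) and low for Tet3 (17.8 CPM, others 36.7 to 39.9). Tet2-/- 2 was high for Klf13 (98.2 CPM, others 61.7 to 65.5) and H2-D1 (595 CPM, others 441 to 444) and low for Psmd11 (130.8 CPM, others 153.7 to 154.4). Tet2-/- 3 was low for Cdkn2d (71.9 CPM, others 78.7 to 78.9) and high for Idh1 (92.0 CPM, others 28.0 to 38.2).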

How the results depend on the processing

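The 3 calls held with RLE scaling, with DESeq2, in a single fit of all 46 libraries, without a filter on low counts and without the genes of the mitochondrial genome, an alternative chosen after seeing the data. The counts depended on the tool: DESeq2 called 199 genes higher and 132 lower, and 807 and 444 at an unadjusted p. All 46 libraries in one fit called 4 and 17, with 934 and 777 at an unadjusted p, and the fit without a filter gave 512 and 543. Leaving out each library gave 2 to 4 genes called higher and 0 lower, 228 to 491 higher and 240 to 374 lower at an unadjusted p, interferon medians of 0.20 to 0.37, and a Tet2 log2 fold change of -0.56 to 0.24, reversed without WT 2. The ranges crossed 0 for Isg15 (-0.18 to 2.14), Tmem173 (-0.27 to 0.40), Tet3 (-0.0836 to 0.33), Hspe1 (-0.18 to 0.36), Relb (-0.12 to 1.03) and Tlr4 (-0.0760 to 0.89), and for list medians including replication and mitosis (-0.31 to 0.16), nuclear oxidative phosphorylation (-0.02 to 0.27), megakaryocyte and erythroid priming (-0.10 to 0.35), lymphoid priming (-0.41 to 0.0988), nucleic acid sensing (-0.25 to 0.0920) and homing (-0.45 to 0.28). Same-numbered libraries did not vary together (correlations -0.01, 0.03 and 0.03), so the numbers do not pair them; with the replicate block 2 genes were called higher, the Gm5586 log2 fold change of 4.65 was not (edgeR adjusted p = 0.0731), and the Tet3 log2 fold change (-0.0475) and those of Cd48 (-0.0498), Isg15 (-0.80), Hspe1 (-0.17), Mki67 (-0.00529) and Top2a (-0.24) changed sign. The interaction gave 1 gene with all 46 libraries in one fit, 443 with DESeq2, and 0 with a replicate block (genotype and replicate number) and with RLE scaling. Of the other comparisons of named genes with their alternatives, 1501 kept their side of the threshold and their sign, 37 passed it newly and 3 lost it. The cause of these differences was not tested. What set the values near 0 CPM, such as those of C1qb and Il1b, was not tested either.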
